A study of Caenorhabditis elegans with 30 samples.

Results

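The 93 genes described here are the *C. elegans* immune effectors whose symbols begin with *lys*, *ilys*, *spp*, *cnc*, *abf* or *fipr* followed by a number, among 46934 genes in the count table. Of these, 80 passed the rule of more than 10 reads in each of 2 or more libraries, 30 in all, and are described below: 8 of 10 *lys*, 5 of 6 *ilys*, 28 of 31 *spp*, 10 of 11 *cnc*, 6 of 6 *abf* and 23 of 29 *fipr* genes. The 13 that fell short were *lys-5*, *lys-9*, *ilys-1*, *spp-7*, *spp-26*, *spp-30*, *cnc-9*, *fipr-12*, *fipr-14*, *fipr-15*, *fipr-19*, *fipr-25* and *fipr-27*. RNA was measured by QuantSeq 3′ mRNA sequencing, which reads one end of each polyadenylated transcript, in whole worms of 3 genotypes: *glp-1(e2141);set-26(tm2467)* mutants, *glp-1(e2141);hcf-1(pk924)* mutants and *glp-1(e2141)* controls, written below as *set-26(-)*, *hcf-1(-)* and control. The *glp-1* mutation leaves the worms of all groups, controls included, without a germline at the temperature at which they were raised, so every value is from a germline-less soma. Worms ate *E. coli* carrying the empty vector L4440 (EV) and were collected at day 1, or were moved at day 1 to EV or *hda-1* RNAi bacteria and collected at days 3 and 12 of adulthood. Each of the 15 groups of genotype, diet and day had 2 libraries, each from a pool of worms.

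These families make up much of the secreted antimicrobial repertoire of the worm. The *lys* genes encode lysozymes related to those of amoebae and the *ilys* genes invertebrate-type lysozymes, enzymes that cut the peptidoglycan of bacterial walls, and many are made in the intestine and act on the bacteria eaten as food as well as on pathogens. The *spp* genes encode saposin-like proteins, among them the caenopores, small proteins that insert into bacterial membranes. Caenacins (*cnc*) and the fungus-induced-protein-related peptides (*fipr*) are short secreted peptides, several of them made in the epidermis after fungal infection or wounding, and the *abf* genes encode antibacterial peptides resembling the ASABF defensins of *Ascaris*. The p38 MAPK pathway in the intestine and DBL-1, a TGFβ-like ligand, with its receptors and SMADs, are known regulators of members of these families.

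Libraries held 6045498 to 17748121 reads assigned to genes (median 8323966), and levels are given as CPM (a gene's share of the assigned reads, scaled to a common library size) after TMM scaling over all 30 libraries. Reads of *hcf-1* were lower in *hcf-1(-)* worms in all 4 comparisons with control, whereas *set-26* reads were not called lower in *set-26(-)* worms in any. Reads of *hda-1* were higher rather than lower in libraries labelled *hda-1* RNAi, at 252 to 1917 CPM in 12 libraries against 20.5 to 117 CPM in the 18 EV libraries, so the depth of the knockdown cannot be read from these counts and the RNAi groups are named by their label. Summed over 12 genes, germline markers reached 8.18 to 45.2 CPM, and *glh-1* had the highest median of the 12, at 9.08 CPM. Throughout, a gene is said to have risen, fallen or been called when the edgeR quasi-likelihood test, with Benjamini-Hochberg adjustment over all genes tested in that comparison, gave an adjusted p under 0.05, and the error after ± is the standard error of the log2 fold change. With 2 libraries a group, these p-values rest on the spread that edgeR shares across genes. Values joined by "and" are those of the first and second library of a group.

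Together the 93 genes took 0.865% to 3.83% of all reads, with the highest shares in day 3 controls (3.33% to 3.83% over both diets) and the lowest in day 12 controls on EV (0.865% and 1.16%). On EV, the summed level of the 80 described genes in controls was 36438 and 32687 CPM at day 1, 49946 and 43504 CPM at day 3 and 10454 and 7146 CPM at day 12. The sums were lower in both mutants at day 1, at 16845 and 18773 CPM in *set-26(-)* and 14668 and 13389 CPM in *hcf-1(-)* libraries, and at day 3, at 28301 and 27566 CPM and 23536 and 25786 CPM. By day 12 on EV the genotypes had come together, with 10082 and 9627 CPM in *set-26(-)*, 10186 and 9993 CPM in *hcf-1(-)* and the control values just given, and on *hda-1* RNAi all 6 day 12 libraries stood higher, at 14210.2 and 12589 CPM in *set-26(-)*, 16497 and 16477 CPM in *hcf-1(-)* and 13025 and 13922 CPM in controls. Lysozymes of the *lys* family and saposin-like proteins carried most of these sums.

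**Figure D1:**
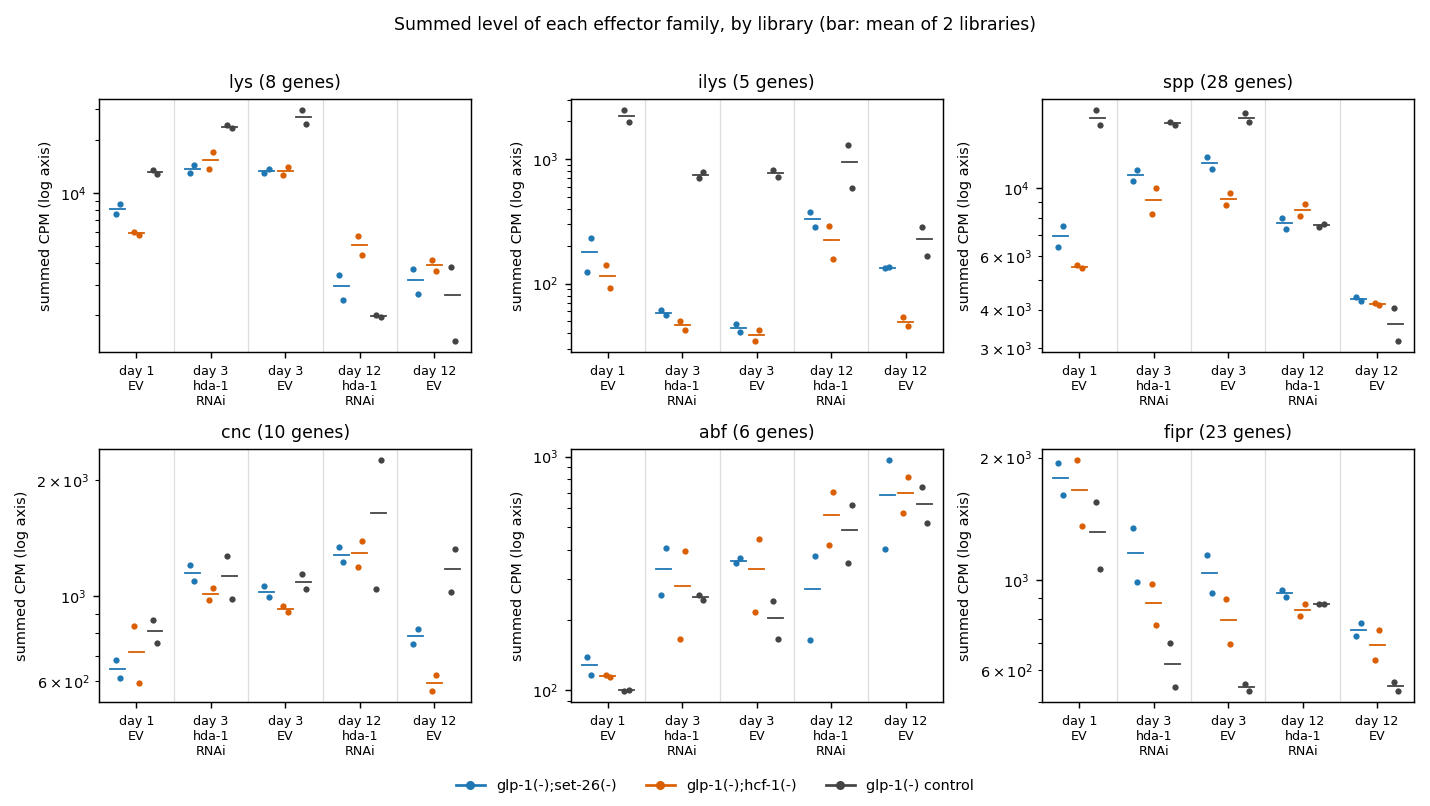
Summed level of each family (CPM, log axis) in every library; points are libraries, bars are means of 2 libraries, and blocks run from day 1 to day 12 with *hda-1* RNAi left of EV and mutants left of control. The *ilys* sum at day 3 on EV lay at 34.9 to 47.9 CPM in the 4 mutant libraries and 714 to 822 CPM in controls, and the *spp* sum at day 12 lay at 7356 to 8898 CPM in all 6 *hda-1* RNAi libraries and 3165 to 4386 CPM in all 6 EV libraries.

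The families did not follow one course. In controls on EV the *lys* sum was 13464 and 12741 CPM at day 1, 29583 and 24643 CPM at day 3 and 3798 and 1436 CPM at day 12, a peak at day 3 that was carried by *lys-7*. The *abf* sum climbed over the same days, with 99.3 and 100 CPM, 242 and 166 CPM and 739 and 519 CPM, and the climb was that of *abf-2*. The *fipr* sum on EV was highest at day 1 in each genotype and, unlike the *lys* and *spp* sums, higher in both mutants than in controls at day 3, at 1151 and 930.1 CPM in *set-26(-)* and 896 and 696 CPM in *hcf-1(-)* libraries, against 553 and 533 CPM in controls.

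**Figure D2:**
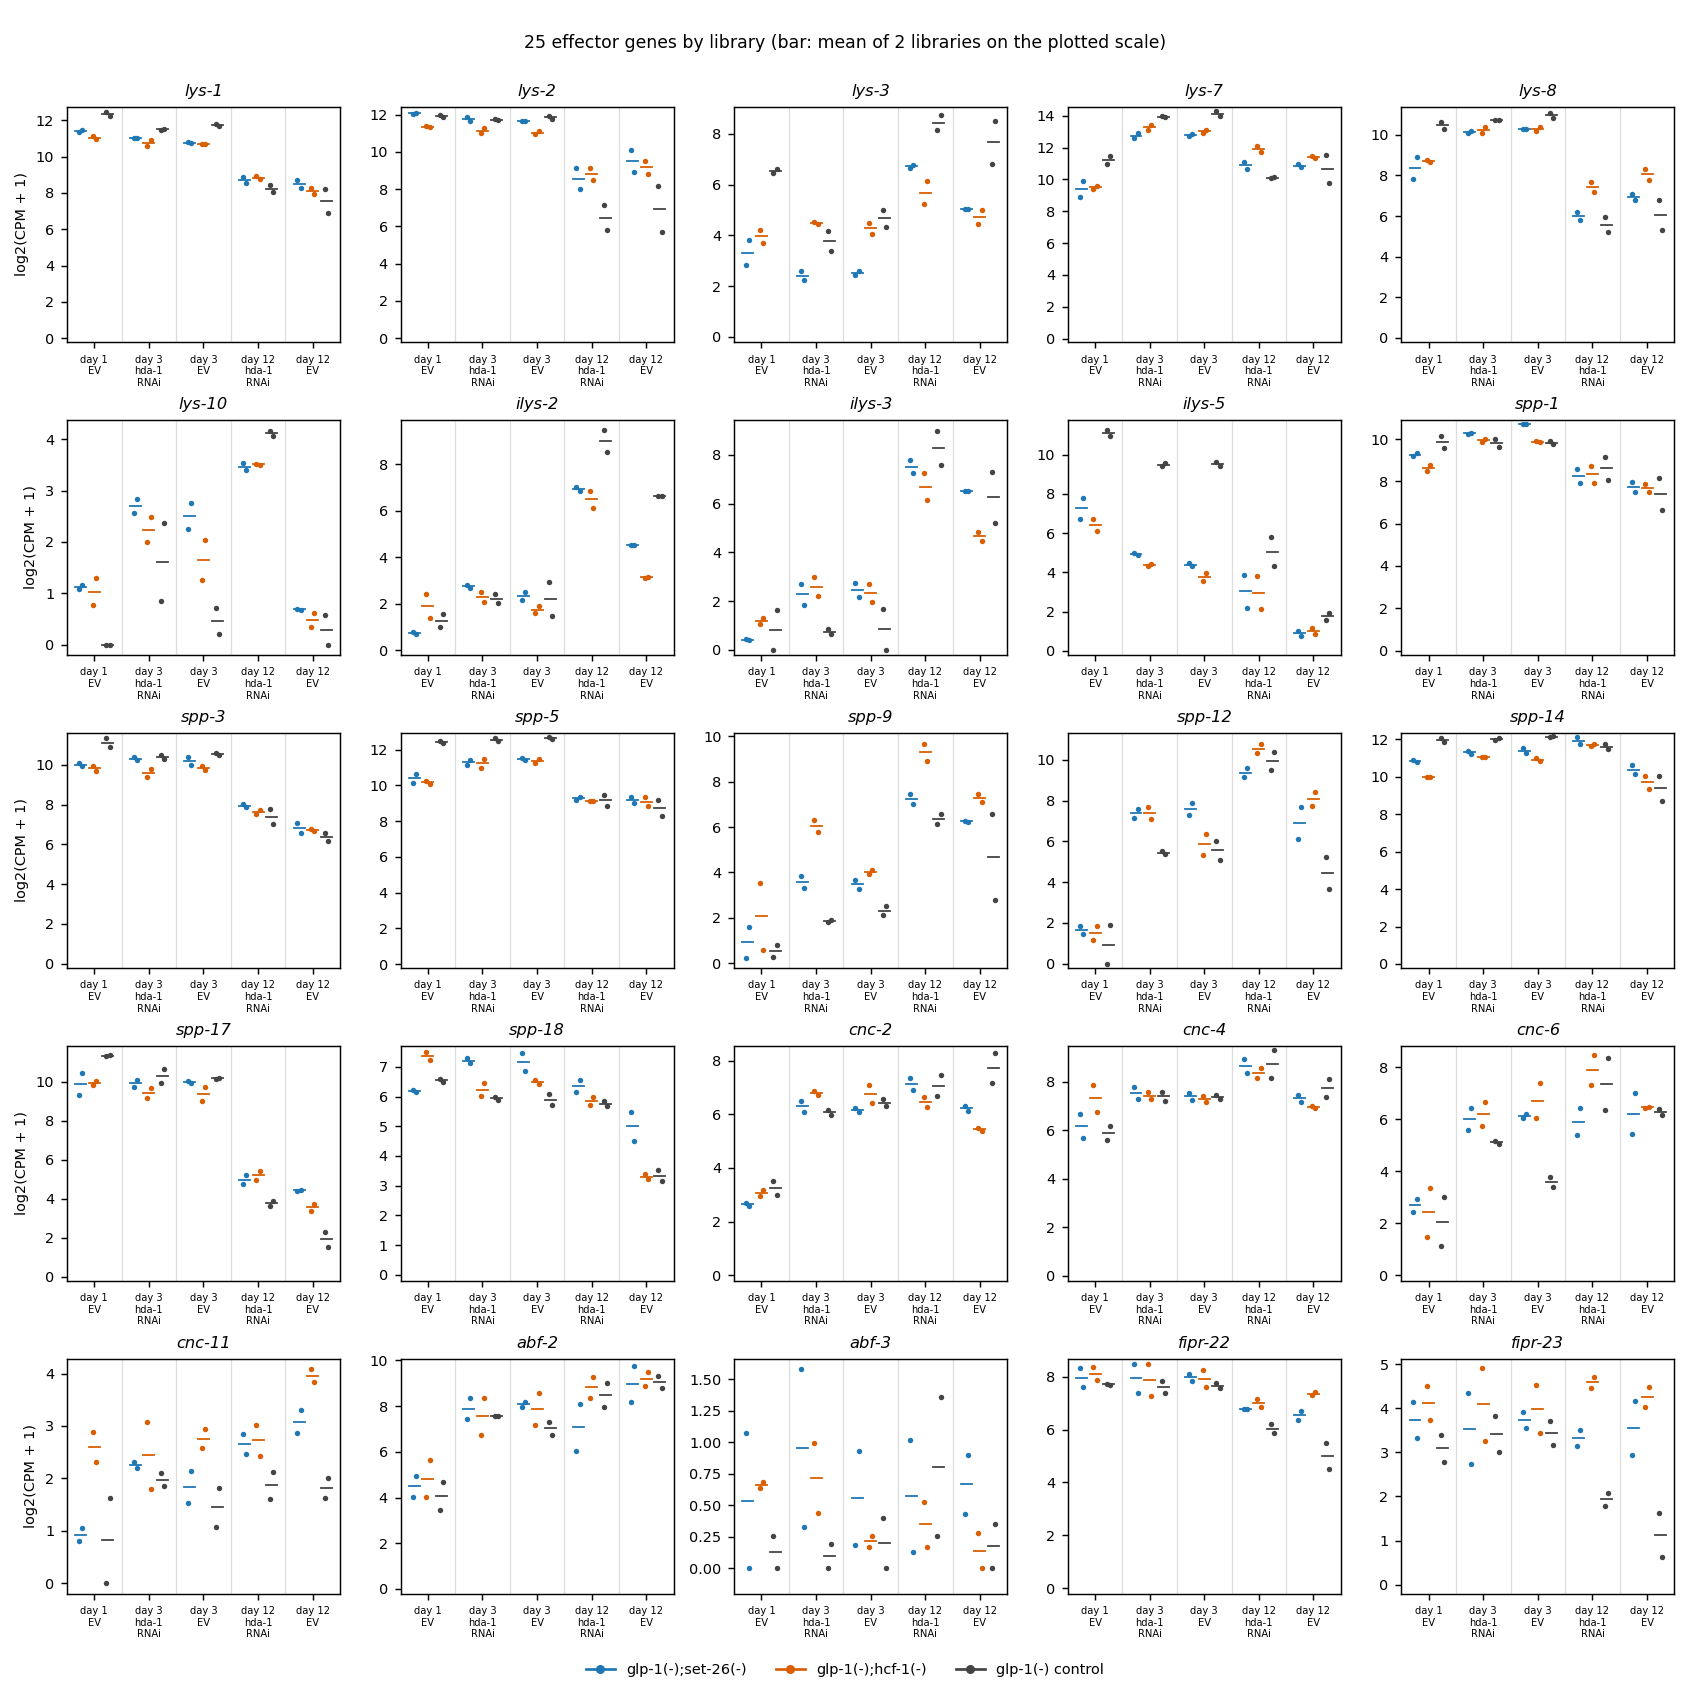
Level of 25 effector genes, as log2(CPM + 1), in every library; points are libraries, bars are means of 2 libraries on that scale, and the order of groups is that of the plot of family sums. At day 1 and day 3 the *ilys-5* points of both mutants lie below all control points, while the *spp-12* and *lys-10* points of day 12 *hda-1* RNAi libraries lie above those of day 12 EV libraries in every genotype.

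Many of the genes lie side by side in the genome (WBcel235). The 6 caenacin genes, *cnc-1*, *cnc-2*, *cnc-3*, *cnc-4*, *cnc-5* and *cnc-11*, lie on chromosome V between 1442342 and 1450183, and *fipr-4* to *fipr-9* on V between 10220981 and 10239961. *spp-2* to *spp-6* lie on X between 7314969 and 7320354, *lys-1*, *lys-2* and *lys-3* on V between 10277904 and 10283544, *ilys-2* and *ilys-3* on IV between 2464456 and 2468879, and *spp-9* and *spp-21* on X between 11487784 and 11490494. Described as Pearson's r of log2(CPM + 1) over the 15 group means, pairs of described genes within 10 kb clusters had a median r of 0.70 (60 pairs), and pairs from different places a median of -0.01 (3100 pairs). The caenopore genes *spp-2* to *spp-6* were alike (r 0.67 to 0.96), as were *spp-9* and *spp-21* (0.97) and *ilys-2* and *ilys-3* (0.94). The neighbours *lys-1* and *lys-2* were alike (0.92), but *lys-3*, in the same cluster, ran against both (-0.58 and -0.81). These correlations share the libraries' ages and depths and describe likeness only. Clustered genes can be near copies of one another, and reads matching more than one place were discarded, so the levels of close copies are uncertain.

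The first comparison asks which effectors depend on SET-26 and HCF-1 in young adults. At day 1, genes of lysozymes and of caenopores fell in both mutants, *ilys-5* among them, and a few *fipr* genes rose. In *set-26(-)* worms 12 of 68 effectors tested fell and 2 rose, with a median log2 fold change of -0.11 for effectors and 0.03 for all genes. The calls made up 8.64% of all genes tested, 4.45% higher and 4.19% lower. In *hcf-1(-)* worms 14 of 68 fell and 10 rose, with a median log2 fold change of 0.03 for effectors and 0.04 for all genes. Here the calls made up 13.6% of all genes tested, 7.76% higher and 5.84% lower. Both mutants are set against the same 2 control libraries, so their lists are not independent. The genes called lower in both were *lys-1*, *lys-3*, *lys-7*, *lys-8*, *ilys-5*, *spp-2*, *spp-3*, *spp-4*, *spp-5*, *spp-14* and *spp-16*. Of those tested, 7 in the *set-26(-)* comparison and 11 in the *hcf-1(-)* comparison reached the filter on reads in only 1 of the 2 genotypes compared. Some of these also passed through the third genotype, which shares the fit. Of the 7 in *set-26(-)* worms 0 were called. Of the 11 in *hcf-1(-)* worms 5 rose and 1 fell. Genes that pass on 1 side only can be tested because they differ, so these counts are a description. In the other mutant comparisons 4 to 13 of those tested were of this kind. Leaving out 1 library changed the counts: *set-26(-)* calls numbered 9 without the first control, 6 without the first *set-26(-)* and 8 without either *hcf-1(-)* library (which share the fit), and *hcf-1(-)* calls 12 without the first control and 6 and 9 without the first and second *hcf-1(-)* library. Calls that held under every alternative and without any 1 library were *lys-3*, *lys-4*, *lys-8*, *ilys-5*, *spp-4* and *spp-5* in *set-26(-)* worms, and *lys-3*, *ilys-5*, *spp-4*, *spp-5*, *spp-14*, *spp-27* and *fipr-26* in *hcf-1(-)* worms.

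*ilys-5*, an invertebrate-type lysozyme gene, had the largest fall of those with 50 or more reads on average in *set-26(-)* worms. It was at 106 and 219 CPM in *set-26(-)* and 105 and 68.2 CPM in *hcf-1(-)* libraries, against 2434 and 1959 CPM in controls (log2 fold change -3.76 ± 0.40, adjusted p = 0.00175 in *set-26(-)*; log2 fold change -4.63 ± 0.42, adjusted p = 0.000718 in *hcf-1(-)*). All 4 mutant libraries lay below both controls. *spp-16*, which encodes a saposin-like protein, was at 7.55 and 11.3 CPM in *set-26(-)* and 4.74 and 10.5 CPM in *hcf-1(-)* libraries, against 149.8 and 53.2 CPM in controls. For *spp-16* the log2 fold change was -3.43 ± 0.56 (adjusted p = 0.0107) in *set-26(-)* and -3.69 ± 0.57 (adjusted p = 0.00675) in *hcf-1(-)* worms. The control libraries themselves were far apart for it. *lys-3* was at 6.07 and 13 CPM in *set-26(-)* and 17.7 and 12 CPM in *hcf-1(-)* libraries, against 86.5 and 97.7 CPM in controls. For *lys-3* the log2 fold change was -3.26 ± 0.37 (adjusted p = 0.0021) in *set-26(-)* and -2.60 ± 0.35 (adjusted p = 0.00389) in *hcf-1(-)* worms. Its neighbour *lys-2* was not called in either mutant at day 1.

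Among the caenopores of the X cluster, *spp-5*, whose product is a well characterised pore-former of the intestine, was at 1128 and 1625 CPM in *set-26(-)* and 1216 and 1087 CPM in *hcf-1(-)* libraries, against 5786 and 5364 CPM in controls. For *spp-5* the log2 fold change was -2.02 ± 0.26 (adjusted p = 0.00357) in *set-26(-)* and -2.24 ± 0.26 (adjusted p = 0.00197) in *hcf-1(-)* worms. Its neighbour *spp-4* was at 20.8 and 41.9 CPM in *set-26(-)* and 20.5 and 22.9 CPM in *hcf-1(-)* libraries, against 184 and 153 CPM in controls. For *spp-4* the log2 fold change was -2.42 ± 0.33 (adjusted p = 0.00465) in *set-26(-)* and -2.92 ± 0.33 (adjusted p = 0.0019) in *hcf-1(-)* worms. *spp-2* and *spp-3* also fell in both mutants (log2 fold changes -2.03 to -1.12), so that 4 of the 5 cluster genes fell, while *spp-6*, at 0.736 and 2.78 CPM in *set-26(-)*, 2.09 and 2.18 CPM in *hcf-1(-)* and 2.71 and 2.85 CPM in control libraries, was not called in any comparison.

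The intestinal lysozyme gene *lys-7*, which is required for full resistance to several pathogens, was at 471 and 972 CPM in *set-26(-)* and 674 and 775 CPM in *hcf-1(-)* libraries, against 2037 and 2895 CPM in controls. For *lys-7* the log2 fold change was -1.77 ± 0.35 (adjusted p = 0.0224) in *set-26(-)* and -1.73 ± 0.35 (adjusted p = 0.018) in *hcf-1(-)* worms. *lys-8* was at 229 and 475 CPM, 437 and 410.4 CPM and 1601 and 1235 CPM in the same order. For *lys-8* the log2 fold change was -2.01 ± 0.34 (adjusted p = 0.0123) in *set-26(-)* and -1.71 ± 0.34 (adjusted p = 0.0162) in *hcf-1(-)* worms. Both genes stood apart between mutants and controls in every library. *spp-14* was at 1907 and 1797 CPM in *set-26(-)* and 998 and 1026 CPM in *hcf-1(-)* libraries, against 4226 and 3651 CPM in controls. For *spp-14* the log2 fold change was -1.09 ± 0.22 (adjusted p = 0.0233) in *set-26(-)* and -1.92 ± 0.22 (adjusted p = 0.00202) in *hcf-1(-)* worms. *lys-4* was called lower in *set-26(-)* worms only (log2 fold change -2.55 ± 0.33, adjusted p = 0.00383), and *spp-1* and *spp-17* in *hcf-1(-)* worms (log2 fold change -1.19 ± 0.25, adjusted p = 0.0209 for *spp-1* and log2 fold change -1.37 ± 0.35, adjusted p = 0.0377 for *spp-17*), though the mutants were not tested against each other. *spp-15* was also called lower in *hcf-1(-)* worms (log2 fold change -5.55 ± 1.44, adjusted p = 0.0408), but its control libraries read 126 and 3.61 CPM, against 0.419 and 2.18 CPM in *hcf-1(-)* libraries, and the log2 fold change was -1.38, with no call, without the first control library.

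Among intestinal markers the summed level moved with these genes, at 5826 and 5447 CPM in *set-26(-)* and 6071 and 4891 CPM in *hcf-1(-)* libraries, against 10005 and 9117 CPM in controls. Of the 7 markers, *cpr-6* and *asp-1*, which encode proteases, fell in *set-26(-)* worms and *cpr-6* and *vha-6* in *hcf-1(-)* worms, while *ges-1*, *elt-2*, *act-5* and *ifb-2* were not called in either. Of 5 body wall muscle markers *myo-3* rose in both mutants and *mup-2* in *hcf-1(-)* worms. The part of these markers in the effectors' fall was not tested. In whole worms, fewer cells of a type and less RNA per cell cannot be told apart.

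**Figure D3:**
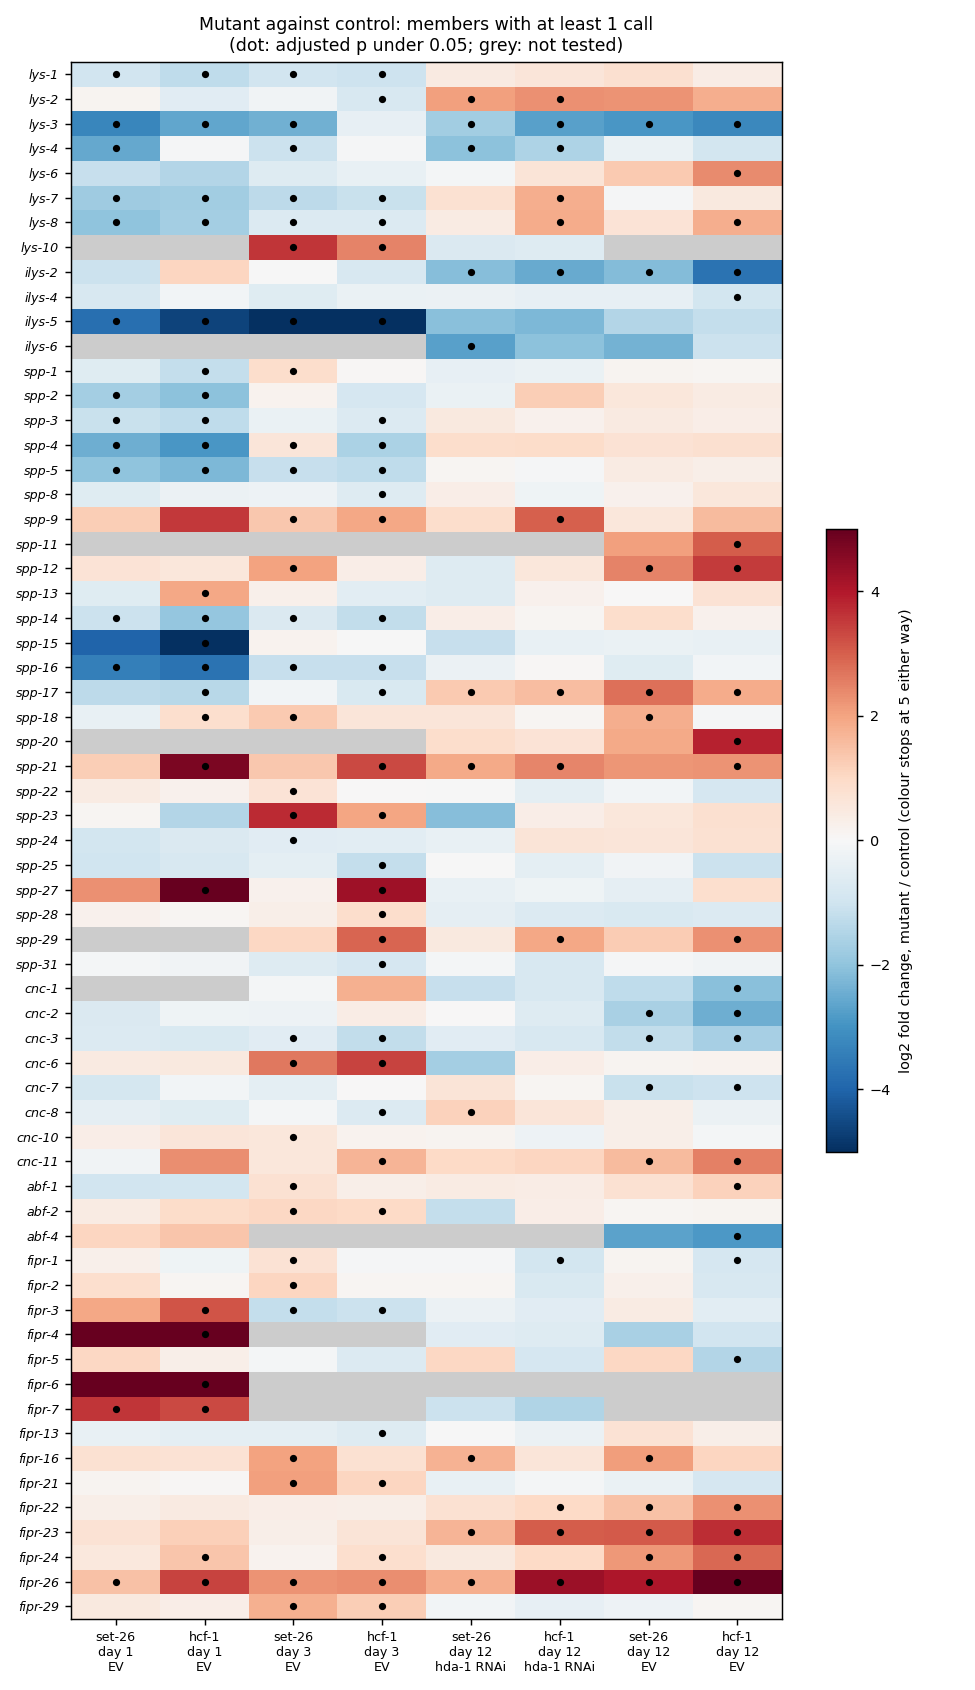
Log2 fold change of mutant over control (colour) for the effectors called in at least 1 of 8 comparisons, grouped by family; a dot marks an adjusted p under 0.05 and grey a gene not tested. *fipr-26* is called higher in all 8 columns, while *ilys-5* is called lower in the 4 columns of days 1 and 3.

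Of the *fipr* family, 6 of 19 tested in *hcf-1(-)* worms and 2 in *set-26(-)* worms rose at day 1, against 7.76% and 4.45% of all genes tested, with none falling. Among the 6, *fipr-4* and *fipr-6* had no more than 6 reads in either control library. They passed the filter on reads only through the mutant libraries in which they were high, so this count is a description. *fipr-26* was at 18.6 and 24 CPM in *set-26(-)* and 93.1 and 63.6 CPM in *hcf-1(-)* libraries, against 5.23 and 10.3 CPM in controls. For *fipr-26* the log2 fold change was 1.46 ± 0.36 (adjusted p = 0.0432) in *set-26(-)* and 3.37 ± 0.36 (adjusted p = 0.00153) in *hcf-1(-)* worms. *fipr-7*, of the *fipr-4* to *fipr-9* cluster, was at 105 and 20.9 CPM in *set-26(-)* and 68.5 and 34 CPM in *hcf-1(-)* libraries, against 6.19 and 4.37 CPM in controls. For *fipr-7* the log2 fold change was 3.58 ± 0.76 (adjusted p = 0.0274) in *set-26(-)* and 3.31 ± 0.75 (adjusted p = 0.0277) in *hcf-1(-)* worms. The first mutant library was the higher for *fipr-7* in both genotypes, and for both genes the control libraries lay below all 4 mutant libraries.

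Also of this cluster, *fipr-4* and *fipr-6* rose in *hcf-1(-)* worms. *fipr-4* was at 61.8 and 25.3 CPM in *hcf-1(-)* libraries against 0.387 and 1.14 CPM in controls (log2 fold change 5.83 ± 1.36, adjusted p = 0.0299), and *fipr-6*, with 0 and 1 reads in the control libraries, was at least 41.3-fold higher, taking 3 reads as the floor in each library. *set-26(-)* libraries held 50.2 and 3.09 CPM and 21 and 1.55 CPM, with 1 high library each, and were not called. *fipr-3* and *fipr-24* rose in *hcf-1(-)* worms too (log2 fold change 3.15 ± 0.72, adjusted p = 0.0275 for *fipr-3* and log2 fold change 1.38 ± 0.27, adjusted p = 0.0161 for *fipr-24*).

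Epidermal cuticle genes moved with the *fipr* genes in *hcf-1(-)* worms. The collagen genes *rol-6*, *dpy-7* and *sqt-3* rose, 3 of the 5 epidermal markers measured, whereas *col-19*, an adult collagen, was not called, and the summed marker level, set by *col-19*, was 7347 and 5394 CPM in *hcf-1(-)* libraries against 11556 and 7840.0 CPM in controls. In *set-26(-)* worms none of the 5 was called. The part of these collagen genes in the rise of *fipr* genes was not tested.

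Several saposin-like genes that were almost silent in day 1 controls were present in *hcf-1(-)* worms. *spp-27* was at 21.1 and 19.5 CPM in *hcf-1(-)* libraries against 0 and 0.380 CPM in controls, at least 35.2-fold higher with 3 reads as the floor in each library, and *spp-21* was at 3.91 and 1.94 CPM against 0 and 0.190 CPM, at least 5.08-fold higher. *spp-13* and *spp-18* rose as well (log2 fold change 1.92 ± 0.51, adjusted p = 0.0442 for *spp-13* and log2 fold change 0.86 ± 0.20, adjusted p = 0.0314 for *spp-18*). *spp-18* stood at 179.8 and 149 CPM in *hcf-1(-)* libraries and 96.6 and 89.9 CPM in controls. Unlike *spp-18*, the genes *spp-27*, *spp-21* and *spp-13* passed the filter on reads only through the *hcf-1(-)* libraries, in which they were high. They had to differ to be tested, so their fold changes and calls are a description.

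At day 3 on EV more effectors were called in both directions. Of 68 effectors tested 18 rose and 12 fell in *set-26(-)* worms, with a median log2 fold change of 0.18 for effectors and 0.02 for all genes. The share of genes called was 14.2% of all genes tested, 8.17% higher and 6.04% lower. The *hcf-1(-)* numbers were 14 higher and 18 lower of 68, with a median log2 fold change of -0.07 for effectors and 0.05 for all genes, and the share of genes called was 14.1% of all genes tested, 6.81% higher and 7.29% lower. *ilys-5* was at 21.2 and 19 CPM in *set-26(-)* and 10.9 and 14.7 CPM in *hcf-1(-)* libraries, against 787 and 690.1 CPM in controls. For *ilys-5* the log2 fold change was -5.18 ± 0.21 (adjusted p = 3.42e-11) in *set-26(-)* and -5.83 ± 0.22 (adjusted p = 1.37e-11) in *hcf-1(-)* worms, the largest fall of any effector tested in either mutant. *lys-7* was at 6769 and 7474 CPM in *set-26(-)* and 7803 and 8755 CPM in *hcf-1(-)* libraries, against 19880.4 and 15888 CPM in controls. For *lys-7* the log2 fold change was -1.31 ± 0.17 (adjusted p = 2.89e-05) in *set-26(-)* and -1.11 ± 0.17 (adjusted p = 0.000186) in *hcf-1(-)* worms. *spp-5* was at 2944 and 2754 CPM in *set-26(-)* and 2431 and 2879.7 CPM in *hcf-1(-)* libraries, against 6748 and 6136 CPM in controls. For *spp-5* the log2 fold change was -1.16 ± 0.16 (adjusted p = 6.97e-05) in *set-26(-)* and -1.27 ± 0.16 (adjusted p = 2.95e-05) in *hcf-1(-)* worms.

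Without the first control library the *hcf-1(-)* calls at day 3 numbered 19. Calls that held under every alternative and without any 1 library numbered 15 in *set-26(-)* and 12 in *hcf-1(-)* worms, with *lys-1*, *ilys-5*, *spp-5*, *cnc-6*, *fipr-21* and *fipr-26* in both lists. *lys-1*, *lys-8*, *spp-14*, *spp-16*, *cnc-3* and *fipr-3* also fell in both mutants at day 3, by smaller amounts (log2 fold changes -1.23 to -0.55). *lys-3* fell in *set-26(-)* worms, to 4.34 and 5.07 CPM against 31.1 and 19.1 CPM in controls (log2 fold change -2.39 ± 0.30, adjusted p = 2.24e-05), while *hcf-1(-)* libraries held 21.7 and 15.6 CPM and were not called. *spp-4* went opposite ways, rising in *set-26(-)* worms (log2 fold change 0.59 ± 0.18, adjusted p = 0.0329) and falling in *hcf-1(-)* worms (log2 fold change -1.59 ± 0.19, adjusted p = 1.36e-05). Of the other caenopores of its cluster, *spp-3* fell in *hcf-1(-)* worms (log2 fold change -0.70 ± 0.17, adjusted p = 0.00931). Among the 7 intestinal markers *cpr-6* fell in both mutants at day 3, and *vha-6* and *ifb-2* rose in *set-26(-)* worms, with summed levels of 7325 and 6401 CPM in *set-26(-)*, 5766 and 5289.7 CPM in *hcf-1(-)* and 7388 and 7164 CPM in control libraries. Also at day 3 the germline helicase gene *glh-1* fell in *set-26(-)* worms, where germline markers summed to 8.27 and 9.02 CPM against 21.2 and 18.7 CPM in controls, *col-19* rose there, and the muscle genes *myo-3* and *mup-2* rose in *hcf-1(-)* worms. The part of these markers in the effectors' changes was not tested.

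Rising in both mutants at day 3 were *lys-10*, *spp-9*, *spp-23*, *cnc-6*, *abf-2*, *fipr-21*, *fipr-26* and *fipr-29*. The caenacin gene *cnc-6* was at 65.4 and 71.6 CPM in *set-26(-)* and 64.3 and 168 CPM in *hcf-1(-)* libraries, against 12.8 and 9.60 CPM in controls. For *cnc-6* the log2 fold change was 2.63 ± 0.34 (adjusted p = 2.96e-05) in *set-26(-)* and 3.38 ± 0.34 (adjusted p = 2.2e-06) in *hcf-1(-)* worms. *spp-9*, a gene known to be repressed by DBL-1 signalling, was at 11.7 and 8.79 CPM in *set-26(-)* and 14.2 and 16.3 CPM in *hcf-1(-)* libraries, against 3.32 and 4.72 CPM in controls. For *spp-9* the log2 fold change was 1.35 ± 0.32 (adjusted p = 0.00733) in *set-26(-)* and 1.93 ± 0.31 (adjusted p = 0.000344) in *hcf-1(-)* worms. *fipr-26* and *fipr-21* did not overlap between mutants and controls either, *fipr-26* with 134 and 87.2 CPM in *set-26(-)*, 128 and 106 CPM in *hcf-1(-)* and 25.6 and 21.6 CPM in control libraries. For *fipr-26* the log2 fold change was 2.24 ± 0.22 (adjusted p = 1.49e-06) in *set-26(-)* and 2.32 ± 0.22 (adjusted p = 1.18e-06) in *hcf-1(-)* worms.

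*fipr-21* was at 382 and 303 CPM in *set-26(-)* and 192 and 155 CPM in *hcf-1(-)* libraries, against 90.7 and 74.6 CPM in controls. For *fipr-21* the log2 fold change was 2.07 ± 0.19 (adjusted p = 6.56e-07) in *set-26(-)* and 1.07 ± 0.19 (adjusted p = 0.000683) in *hcf-1(-)* worms. *spp-23* was at 56 and 83 CPM in *set-26(-)* and 3.93 and 36.5 CPM in *hcf-1(-)* libraries, against 7.74 and 2.83 CPM in controls. For *spp-23* the log2 fold change was 3.73 ± 0.63 (adjusted p = 0.000466) in *set-26(-)* and 1.97 ± 0.64 (adjusted p = 0.0483) in *hcf-1(-)* worms. The *hcf-1(-)* libraries overlapped the controls, and without the second *hcf-1(-)* library the log2 fold change was -0.41 (adjusted p = 0.617), so this call in *hcf-1(-)* worms rests on 1 library. *abf-2*, an antibacterial peptide gene, was called higher in both. For *abf-2* the log2 fold change was 1.05 ± 0.31 (adjusted p = 0.0293) in *set-26(-)* and 0.99 ± 0.31 (adjusted p = 0.0381) in *hcf-1(-)* worms. It was at 250.2 and 288 CPM in *set-26(-)*, 142 and 379 CPM in *hcf-1(-)* and 158 and 106 CPM in control libraries, the *hcf-1(-)* values again overlapping the controls.

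Some genes were called in 1 mutant only at day 3. The saposin-like gene *spp-27* in *hcf-1(-)* worms was at 72.3 and 69.2 CPM against 5.37 and 2.20 CPM in controls (log2 fold change 4.22 ± 0.32, adjusted p = 6.69e-08), with 3.12 and 5.52 CPM in *set-26(-)* libraries. *spp-21* (log2 fold change 3.31 ± 0.51, adjusted p = 0.000206) and *spp-29* (log2 fold change 2.89 ± 0.35, adjusted p = 1.88e-05) rose there as well. The caenopore gene *spp-12* in *set-26(-)* worms was at 153 and 232 CPM against 64.4 and 32.6 CPM in controls (log2 fold change 2.01 ± 0.32, adjusted p = 0.00025), and *fipr-16* at 68.1 and 48.5 CPM against 9.48 and 19.8 CPM (log2 fold change 2.0 ± 0.30, adjusted p = 0.000144). *spp-18* and *spp-1* rose in *set-26(-)* worms too (log2 fold change 1.31 ± 0.21, adjusted p = 0.000273 for *spp-18* and log2 fold change 0.89 ± 0.16, adjusted p = 0.000679 for *spp-1*). *lys-10*, at 3.80 and 5.75 CPM in *set-26(-)*, 1.39 and 3.10 CPM in *hcf-1(-)* and 0.632 and 0.157 CPM in control libraries, is a gene of few reads.

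At day 12 on EV, of the 11 genes called lower in both mutants at day 1 only *lys-3* was called lower, and the list of called genes changed. Of 71 effectors tested 9 rose and 5 fell in *set-26(-)* worms, with a median log2 fold change of 0.31 for effectors and 0.00 for all genes. Calls covered 4.67% of all genes tested, 3.23% higher and 1.45% lower. Of 71 tested in *hcf-1(-)* worms 14 rose and 10 fell, with a median log2 fold change of 0.11 for effectors and 0.00 for all genes, and calls covered 5.81% of all genes tested, 3.3% higher and 2.51% lower. In both mutants *spp-12*, *spp-17*, *cnc-11*, *fipr-22*, *fipr-23*, *fipr-24* and *fipr-26* rose and *lys-3*, *ilys-2*, *cnc-2*, *cnc-3* and *cnc-7* fell. The *set-26(-)* calls numbered 28 without the first control, 6 and 5 without the first and second *set-26(-)* and 9 without either *hcf-1(-)* library, and the *hcf-1(-)* calls 7 without either *hcf-1(-)* and 15 without either *set-26(-)* library. Calls that held throughout were *ilys-2*, *spp-17* and *fipr-26* in *set-26(-)* worms and *ilys-2*, *spp-20*, *cnc-11*, *fipr-22*, *fipr-24* and *fipr-26* in *hcf-1(-)* worms.

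Tissue markers moved between the genotypes at day 12 on EV as well. *glh-1*, of 3 germline markers tested, fell in both mutants (log2 fold change -1.83 ± 0.30, adjusted p = 0.01 in *set-26(-)* and log2 fold change -1.99 ± 0.30, adjusted p = 0.00803 in *hcf-1(-)*), with germline sums of 16.6 and 18.7 CPM in *set-26(-)* and 16.5 and 13 CPM in *hcf-1(-)* libraries, against 32.2 and 44.8 CPM in controls. In *hcf-1(-)* worms the muscle genes *unc-54* and *mup-2* rose, 2 of 5, with muscle sums of 1320.5 and 1144 CPM in *hcf-1(-)* libraries against 839 and 781 CPM in controls, and the intestinal gene *ifb-2* fell, 1 of 7. On *hda-1* RNAi *unc-54* and *mup-2* rose and *glh-1* fell in *hcf-1(-)* worms, with muscle sums of 1204 and 1214 CPM in *hcf-1(-)* libraries against 815 and 769 CPM in controls and germline sums of 22.5 and 23.7 CPM against 39.1 and 45.2 CPM, and no tissue marker was called in *set-26(-)* worms. The part of these markers in the effectors' changes was not tested.

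*ilys-2* was at 22 and 21.7 CPM in *set-26(-)* and 7.57 and 7.85 CPM in *hcf-1(-)* libraries, against 97.9 and 98.4 CPM in controls. For *ilys-2* the log2 fold change was -2.18 ± 0.20 (adjusted p = 0.000621) in *set-26(-)* and -3.68 ± 0.21 (adjusted p = 0.000122) in *hcf-1(-)* worms, with little spread within any group. *lys-3* was at 31.5 and 31.8 CPM in *set-26(-)* and 20.6 and 31.3 CPM in *hcf-1(-)* libraries, against 112 and 360.4 CPM in controls. For *lys-3* the log2 fold change was -2.92 ± 0.48 (adjusted p = 0.0106) in *set-26(-)* and -3.21 ± 0.49 (adjusted p = 0.00846) in *hcf-1(-)* worms. *cnc-2*, a caenacin gene that responds to DBL-1 in the epidermis, was at 78.8 and 69 CPM in *set-26(-)* and 44 and 40.7 CPM in *hcf-1(-)* libraries, against 143 and 308 CPM in controls. For *cnc-2* the log2 fold change was -1.63 ± 0.33 (adjusted p = 0.0248) in *set-26(-)* and -2.43 ± 0.34 (adjusted p = 0.00581) in *hcf-1(-)* worms.

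In the caenacin cluster the neighbours did not move together at day 12. *cnc-3* fell in both mutants (log2 fold change -1.21 ± 0.20, adjusted p = 0.0111 in *set-26(-)* and log2 fold change -1.67 ± 0.20, adjusted p = 0.00387 in *hcf-1(-)*) and *cnc-1* in *hcf-1(-)* worms (log2 fold change -2.10 ± 0.34, adjusted p = 0.0103), while *cnc-11*, in the same cluster, rose to 6.27 and 8.91 CPM in *set-26(-)* and 15.9 and 13.3 CPM in *hcf-1(-)* libraries, against 2.08 and 3.01 CPM in controls. For *cnc-11* the log2 fold change was 1.58 ± 0.33 (adjusted p = 0.0298) in *set-26(-)* and 2.52 ± 0.33 (adjusted p = 0.00483) in *hcf-1(-)* worms. *cnc-4* and *cnc-5* were not called in either mutant.

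The 3 *fipr* genes that lie together on chromosome I between 14153228 and 14158078, *fipr-22*, *fipr-23* and *fipr-24*, all rose in both mutants at day 12 on EV. *fipr-22* was at 81.2 and 104 CPM in *set-26(-)* and 156 and 168 CPM in *hcf-1(-)* libraries, against 44.1 and 22 CPM in controls. For *fipr-22* the log2 fold change was 1.47 ± 0.31 (adjusted p = 0.0283) in *set-26(-)* and 2.27 ± 0.31 (adjusted p = 0.00571) in *hcf-1(-)* worms. *fipr-24* was at 44 and 81.3 CPM, 85.3 and 121 CPM and 16.8 and 11.1 CPM in the same order. For *fipr-24* the log2 fold change was 2.15 ± 0.35 (adjusted p = 0.00929) in *set-26(-)* and 2.87 ± 0.35 (adjusted p = 0.00387) in *hcf-1(-)* worms. *fipr-26*, elsewhere in the genome, was at 29.2 and 70.8 CPM in *set-26(-)* and 87.9 and 114 CPM in *hcf-1(-)* libraries, against 3.87 and 2.05 CPM in controls. For *fipr-26* the log2 fold change was 4.03 ± 0.47 (adjusted p = 0.00229) in *set-26(-)* and 5.04 ± 0.48 (adjusted p = 0.00129) in *hcf-1(-)* worms.

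*fipr-23* rose as well. For *fipr-23* the log2 fold change was 3.06 ± 0.58 (adjusted p = 0.0188) in *set-26(-)* and 3.69 ± 0.57 (adjusted p = 0.00935) in *hcf-1(-)* worms, although its reads in controls were few (2.08 and 0.547 CPM). Of the saposin-like genes, *spp-12* was at 68.5 and 204 CPM in *set-26(-)* and 212 and 341 CPM in *hcf-1(-)* libraries, against 36.5 and 11.8 CPM in controls. For *spp-12* the log2 fold change was 2.48 ± 0.59 (adjusted p = 0.0446) in *set-26(-)* and 3.50 ± 0.61 (adjusted p = 0.0149) in *hcf-1(-)* worms. *spp-17* was at 19.9 and 21.2 CPM in *set-26(-)* and 9.42 and 12.5 CPM in *hcf-1(-)* libraries, against 3.97 and 1.91 CPM in controls. For *spp-17* the log2 fold change was 2.75 ± 0.34 (adjusted p = 0.0029) in *set-26(-)* and 1.84 ± 0.34 (adjusted p = 0.0184) in *hcf-1(-)* worms. It had been lower in *hcf-1(-)* worms at days 1 and 3. *fipr-16* rose in *set-26(-)* worms (log2 fold change 2.10 ± 0.30, adjusted p = 0.00604), and in *hcf-1(-)* worms *spp-29* (log2 fold change 2.27 ± 0.38, adjusted p = 0.012), *spp-21* (log2 fold change 2.24 ± 0.56, adjusted p = 0.0478) and *lys-8* (log2 fold change 1.83 ± 0.42, adjusted p = 0.0364) rose. *spp-20* was at least 14.6-fold higher in *hcf-1(-)* worms, with 3 reads in each control library.

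On *hda-1* RNAi at day 12 the genotypes differed in *lys-2*, *lys-3*, *lys-4* and *ilys-2* among the lysozymes, called in both mutants. Of 73 effectors tested 7 rose and 4 fell in *set-26(-)* worms, with a median log2 fold change of -0.04 for effectors and -0.01 for all genes, and 10 rose and 4 fell in *hcf-1(-)* worms, with a median log2 fold change of -0.10 for effectors and 0.02 for all genes. Calls covered 3.25% of all genes tested, 2.1% higher and 1.15% lower in *set-26(-)* worms, and 4.31% of all genes tested, 2.45% higher and 1.86% lower in *hcf-1(-)* worms. Of the effectors called, 1 that fell in *set-26(-)* worms reached the filter on reads in only 1 of the 2 genotypes compared, so the counts are a description. *ilys-2* remained lower, at 129 and 115 CPM in *set-26(-)* and 114 and 68.2 CPM in *hcf-1(-)* libraries, against 701 and 360.0 CPM in controls. For *ilys-2* the log2 fold change was -2.12 ± 0.35 (adjusted p = 0.0118) in *set-26(-)* and -2.53 ± 0.35 (adjusted p = 0.00619) in *hcf-1(-)* worms. *lys-3* also remained lower, at 101 and 109 CPM, 36.8 and 68.9 CPM and 283 and 425 CPM in the same order. For *lys-3* the log2 fold change was -1.76 ± 0.32 (adjusted p = 0.0193) in *set-26(-)* and -2.73 ± 0.33 (adjusted p = 0.00308) in *hcf-1(-)* worms. *lys-2* rose in both mutants, to 558 and 254 CPM in *set-26(-)* and 565 and 364 CPM in *hcf-1(-)* libraries, against 139 and 55 CPM in controls. For *lys-2* the log2 fold change was 2.07 ± 0.47 (adjusted p = 0.0458) in *set-26(-)* and 2.27 ± 0.48 (adjusted p = 0.0277) in *hcf-1(-)* worms. *lys-4* fell in both. For *lys-4* the log2 fold change was -2.06 ± 0.38 (adjusted p = 0.0203) in *set-26(-)* and -1.54 ± 0.37 (adjusted p = 0.0461) in *hcf-1(-)* worms. The *set-26(-)* calls numbered 6 and 3 without the first and second control, 5 and 4 without the first and second *set-26(-)* and 7 without the second *hcf-1(-)* library, and the *hcf-1(-)* calls 7 without the second control and 9 and 7 without the first and second *hcf-1(-)* library. Calls that held throughout were *spp-21* in *set-26(-)* worms and *lys-3*, *spp-9*, *spp-21*, *fipr-23* and *fipr-26* in *hcf-1(-)* worms.

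*spp-21* and *fipr-23* rose in both mutants on *hda-1* RNAi, *spp-21* to 175 and 125 CPM in *set-26(-)* and 196 and 229 CPM in *hcf-1(-)* libraries, against 33.4 and 46.5 CPM in controls. For *spp-21* the log2 fold change was 1.91 ± 0.27 (adjusted p = 0.00582) in *set-26(-)* and 2.43 ± 0.28 (adjusted p = 0.00217) in *hcf-1(-)* worms. *spp-9*, its neighbour on X, was at 822 and 477 CPM in *hcf-1(-)* libraries against 68.5 and 94.6 CPM in controls (log2 fold change 3.00 ± 0.33, adjusted p = 0.00177). *lys-7* was at 4367 and 3415 CPM in *hcf-1(-)* libraries against 1091 and 1134 CPM in controls (log2 fold change 1.82 ± 0.25, adjusted p = 0.00563), the reverse of its order at days 1 and 3. Also higher in *hcf-1(-)* worms were *lys-8* (log2 fold change 1.86 ± 0.30, adjusted p = 0.0109) and *spp-29* (log2 fold change 1.93 ± 0.28, adjusted p = 0.00676).

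*fipr-26* was the only one of the 80 genes called in the same direction in all 8 mutant comparisons, with log2 fold changes of 1.46 to 5.04, although the *set-26(-)* and *hcf-1(-)* comparisons of a day and diet share their controls. *lys-3* was called lower in all 4 *set-26(-)* comparisons and in 3 of 4 for *hcf-1(-)*, and *spp-21* higher in all 4 for *hcf-1(-)*. Another 9 genes were called in opposite directions in different mutant comparisons: *lys-2*, *lys-7*, *lys-8*, *spp-1*, *spp-4*, *spp-17*, *cnc-8*, *fipr-1* and *fipr-3*. For 16 of the 79 tested no mutant comparison was called.

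Between day 1 and day 12 on EV, 27 of 70 effectors tested rose and 25 fell in *set-26(-)* worms, 25 of 76 rose and 31 fell in *hcf-1(-)* worms, and 17 of 68 rose and 23 fell in controls. Of these calls 40, 46 and 29, in that order, held under every alternative and without any 1 library. Of those tested 18, 16 and 20 passed the filter on reads through 1 day only, and had to differ to be tested. Of these 10, 9 and 10 were called higher and 3, 6 and 6 lower, so the counts are a description. Calls covered 42.0% of all genes tested, 20.9% higher and 21.1% lower, in *set-26(-)* worms, 39.7% of all genes tested, 19.2% higher and 20.5% lower, in *hcf-1(-)* worms, and 26.8% of all genes tested, 11.8% higher and 15% lower, in controls. The effectors' median log2 fold changes were 0.25 in *set-26(-)*, -0.45 in *hcf-1(-)* and -0.35 in control worms, against 0.01, 0.00 and 0.04 over all genes. No library is shared between genotypes here. Of 66 effectors tested in all 3 genotypes, 12 rose in all 3 (18.2%, against 6.98% of 11772 genes) and 17 fell in all 3 (25.8%, against 10.3%). These shares are a description, since 8 of the 12 and 4 of the 17 passed the filter on reads through 1 day only in at least 1 genotype and had to differ to be tested. Those that rose were *ilys-2*, *ilys-3*, *spp-9*, *spp-12*, *spp-21*, *spp-27*, *spp-28*, *cnc-1*, *cnc-2*, *cnc-6*, *cnc-7* and *abf-2*. Those that fell were *lys-1*, *lys-2*, *lys-8*, *ilys-5*, *spp-1*, *spp-3*, *spp-4*, *spp-5*, *spp-8*, *spp-17*, *spp-18*, *cnc-8*, *fipr-7*, *fipr-10*, *fipr-13*, *fipr-21* and *fipr-22*.

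In controls *ilys-5* fell furthest, to 1.98 and 2.87 CPM at day 12 against 2434 and 1959 CPM at day 1 (log2 fold change -9.86 ± 0.49, adjusted p = 0.000716). *spp-17* fell almost as far, to 3.97 and 1.91 CPM against 2549 and 2642 CPM at day 1 (log2 fold change -9.80 ± 0.56, adjusted p = 0.000798). The intestinal lysozyme gene *lys-1* was at 300.4 and 119.7 CPM at day 12 against 5613 and 4769 CPM at day 1 (log2 fold change -4.67 ± 0.56, adjusted p = 0.00362), and *lys-2* and *lys-8* fell with it (log2 fold change -4.61 ± 0.84, adjusted p = 0.0119 for *lys-2* and log2 fold change -4.29 ± 0.58, adjusted p = 0.00494 for *lys-8*). For these 3 lysozyme genes the second day 12 control library was the lower.

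The X cluster of caenopores fell together in controls, *spp-3* to 94.1 and 70.0 CPM at day 12 against 2607 and 1886 CPM at day 1 (log2 fold change -4.81 ± 0.39, adjusted p = 0.00147), *spp-4* (log2 fold change -7.20 ± 0.35, adjusted p = 0.000716), *spp-5* (log2 fold change -3.69 ± 0.44, adjusted p = 0.00366) and *spp-2* (log2 fold change -3.31 ± 0.47, adjusted p = 0.00561), with *spp-6* not called. *fipr-13* was at 2.18 and 1.23 CPM at day 12 against 77 and 82.3 CPM at day 1 (log2 fold change -5.54 ± 0.36, adjusted p = 0.000994). *spp-18*, *spp-8* and *spp-14* also fell (log2 fold changes -3.37, -2.41 and -2.47).

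Among those that rose in aging controls, *spp-27* was at 184 and 343 CPM at day 12 against 0 and 0.380 CPM at day 1, at least 458-fold higher, and *spp-21* was at least 25.7-fold higher, at 24.7 and 4.92 CPM against 0 and 0.190 CPM. *cnc-1* was at 188 and 223 CPM at day 12 against 0 and 1.90 CPM at day 1 (log2 fold change 7.69 ± 0.89, adjusted p = 0.00334). *ilys-2* was at 97.9 and 98.4 CPM against 0.968 and 1.90 CPM (log2 fold change 6.04 ± 0.39, adjusted p = 0.000991). Both day 12 libraries stood above both day 1 libraries for each of these. All of them had 10 or fewer reads in each day 1 control library and passed the filter on reads through day 12 only. They had to differ to be tested, so this separation is a description.

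*ilys-3*, an invertebrate lysozyme gene active in the pharynx and gut, was at 156 and 35.9 CPM at day 12 against 0 and 2.09 CPM at day 1 (log2 fold change 6.44 ± 1.17, adjusted p = 0.0118). *abf-2* was at 637 and 441 CPM against 9.87 and 24.5 CPM (log2 fold change 4.92 ± 0.54, adjusted p = 0.00281), and *cnc-2* at 143 and 308 CPM against 10.5 and 7.03 CPM (log2 fold change 4.66 ± 0.51, adjusted p = 0.00271). *spp-9* was called higher (log2 fold change 6.61 ± 1.58, adjusted p = 0.0276) although its day 12 libraries read 94.7 and 5.88 CPM. In controls *ilys-3*, with 0 and 11 reads at day 1, and *spp-9*, with 1 and 4, passed the filter on reads through day 12. The study's methods describe collecting a population on successive days, but the labels give only a replicate number. Deviations of same-numbered control libraries hardly correlated across genes (r = 0.01), so a pairing by number is not shown. When the numbers were fitted as a block, 5 of the calls in aging controls were lost: *lys-6* (adjusted p = 0.0535), *ilys-6* (0.064), *spp-12* (0.0899), *spp-23* (0.0669) and *cnc-10* (0.0981).

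In the mutants several further genes were called with age. *spp-15* was called higher at day 12 in both mutants, at 389 and 806 CPM at day 12 against 4.05 and 4.02 CPM at day 1 in *set-26(-)* worms (log2 fold change 7.19 ± 0.44, adjusted p = 7.6e-07), and 425 and 756 CPM against 0.419 and 2.18 CPM in *hcf-1(-)* worms (log2 fold change 8.75 ± 0.50, adjusted p = 1.65e-07). The *fipr-4* to *fipr-9* cluster, of which *fipr-4*, *fipr-6* and *fipr-7* had been called higher in *hcf-1(-)* worms at day 1, fell with age there in all 6 genes, among them *fipr-7* (log2 fold change -7.72 ± 0.49, adjusted p = 3.55e-07) and *fipr-6*, which was at least 113-fold lower at day 12. In *set-26(-)* worms *fipr-4*, *fipr-5* and *fipr-7* of the cluster fell. *lys-7* rose with age in *set-26(-)* and *hcf-1(-)* worms (log2 fold change 1.35 ± 0.34, adjusted p = 0.00844 in *set-26(-)* and log2 fold change 1.89 ± 0.20, adjusted p = 2.17e-05 in *hcf-1(-)*) and was not called in controls, whose day 12 libraries were far apart at 2973 and 862 CPM.

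Tissue markers moved with age too. In controls 5 of 5 body wall muscle markers fell, with summed levels of 839 and 781 CPM at day 12 against 7126 and 5972 CPM at day 1. Intestinal markers were at 1914 and 1677 CPM at day 12 against 10005 and 9117 CPM at day 1 in controls, where *ges-1*, *vha-6*, *cpr-6* and *asp-1* fell and *elt-2*, the gut GATA factor, rose (log2 fold change 1.06 ± 0.30, adjusted p = 0.0442). In the mutants 5 of 7 (*set-26(-)*) and 6 of 7 (*hcf-1(-)*) intestinal markers fell. Epidermal markers were at 65.7 and 18.9 CPM at day 12 against 11556 and 7840.0 CPM at day 1. The part of these shifts in the effectors' changes was not tested.

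Some of the change was already present at day 3. In controls on EV 13 of 63 effectors tested rose and 11 fell against day 1, with a median log2 fold change of 0.07 for effectors and 0.02 for all genes. Calls covered 9.99% of all genes tested, 4.32% higher and 5.67% lower. Of the 63 effectors 10 passed the filter on reads through 1 day only, and had to differ to be tested. Of these 2 were called higher and 3 lower, so the counts are a description. *lys-7* was at 19880.4 and 15888 CPM at day 3 against 2037 and 2895 CPM at day 1 (log2 fold change 2.86 ± 0.25, adjusted p = 0.00463). *cnc-2* was at 93.2 and 78.6 CPM against 10.5 and 7.03 CPM (log2 fold change 3.30 ± 0.28, adjusted p = 0.00438), and *cnc-4*, *cnc-7* and *abf-2* rose as well. *ilys-5* was at 787 and 690.1 CPM against 2434 and 1959 CPM at day 1 (log2 fold change -1.57 ± 0.20, adjusted p = 0.0103), a smaller fall than that at day 12.

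*fipr-21* was at 90.7 and 74.6 CPM at day 3 against 802 and 457 CPM at day 1 (log2 fold change -2.93 ± 0.32, adjusted p = 0.00732), and *fipr-1*, *fipr-2*, *fipr-5*, *fipr-7*, *fipr-9* and *fipr-10* fell as well. Of these, *fipr-7*, *fipr-9* and *fipr-10* passed the filter on reads through day 1 only. *lys-3* fell between day 1 and day 3 (log2 fold change -1.87 ± 0.28, adjusted p = 0.0137) and its day 12 control libraries held 112 and 360.4 CPM. These counts depended on single libraries, since 0 effectors were called without the first day 3 library and 1 without the second. Fitted with the same block, the calls of *spp-9* (adjusted p = 0.0744), *spp-12* (0.0504), *cnc-3* (0.0604), *fipr-24* (0.0556) and *fipr-26* (0.0702) were lost.

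Whether the change with age differed by genotype was tested as an interaction, the difference in log2 fold change between mutant and control. Of 76 effectors tested in *set-26(-)* worms 7 had a more positive change than controls and 1 a more negative one, and 12 and 6 did in *hcf-1(-)* worms. Median differences were 0.76 for effectors and -0.04 for all genes in *set-26(-)* worms, and -0.26 and -0.05 in *hcf-1(-)* worms. Calls covered 3.43% of all genes tested, 2.07% higher and 1.36% lower, for *set-26(-)*, and 5.05% of all genes tested, 2.54% higher and 2.51% lower, for *hcf-1(-)*. The genes called in both mutants with a more positive change were *lys-8*, *spp-3*, *spp-4*, *spp-5*, *spp-16* and *spp-17*. For all of these but *spp-16* the fall with age was smaller in the mutants. All but *spp-17* had been called lower in both mutants at day 1. The interaction draws on the same day 1 libraries, so it is not separate from that difference. *spp-5* was at 655 and 523 CPM at day 12 and 1128 and 1625 CPM at day 1 in *set-26(-)* worms, 641 and 458 CPM and 1216 and 1087 CPM in *hcf-1(-)* worms, and 581 and 309 CPM and 5786 and 5364 CPM in controls (interaction 2.42 ± 0.45, adjusted p = 0.0137 in *set-26(-)*; 2.55 ± 0.45, adjusted p = 0.00951 in *hcf-1(-)*).

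*spp-17* followed the same course, with log2 changes of -5.68 ± 0.41 in *set-26(-)*, -6.50 ± 0.26 in *hcf-1(-)* and -9.80 ± 0.56 in control worms (interaction adjusted p = 0.00312 and 0.00674). *lys-8* changed by -1.54 ± 0.32, -0.67 ± 0.21 and -4.29 ± 0.58 in the same order (adjusted p = 0.0336 and 0.00953). *spp-16* is the exception in direction, since it rose with age in both mutants (1.23 ± 0.29 and 2.02 ± 0.32), while its change in controls, -1.61 ± 0.52, was not called. *ilys-5* lost less in *hcf-1(-)* worms than in controls (interaction 3.48 ± 0.60, adjusted p = 0.00883), and *lys-6*, *spp-2*, *spp-14*, *abf-1* and *fipr-22* were called more positive there as well. At day 12 *ilys-5* had only 24 and 9 reads in *hcf-1(-)* and 20 and 21 reads in control libraries. Its smaller loss is therefore not separate from its lower level in *hcf-1(-)* worms at day 1. The *set-26(-)* count of 8 was 17 and 3 without the first and second day 12 control, 2 without the first day 1 *set-26(-)*, 2 and 4 without the first and second day 12 *set-26(-)*, 5 without the second day 1 *hcf-1(-)* and 4 without either day 12 *hcf-1(-)* library. The *hcf-1(-)* count of 18 was 11 without the first day 1 control, 7 without the second day 12 control, 6 without the first day 1 *hcf-1(-)*, and 7 and 8 without the first and second day 12 *hcf-1(-)* library. Only *spp-17* in *set-26(-)* worms, and *ilys-2*, *spp-4*, *spp-5*, *spp-17* and *spp-27* in *hcf-1(-)* worms, were called in all of these and under every alternative.

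Genes with a more negative change in *hcf-1(-)* worms than in controls were *ilys-2*, *spp-27*, *cnc-2*, *cnc-4*, *fipr-3* and *fipr-4*. For *ilys-2* the log2 changes were 1.40 ± 0.43 in *hcf-1(-)* and 6.04 ± 0.39 in control worms (interaction adjusted p = 0.00126). *spp-27*, already present in *hcf-1(-)* worms at day 1, was at 348 and 598 CPM in *hcf-1(-)* and 184 and 343 CPM in control libraries at day 12 (interaction adjusted p = 0.00392). *fipr-4* fell with age in both mutants and rose in controls, and its interaction was called in both (adjusted p = 0.0377 in *set-26(-)* and 0.0276 in *hcf-1(-)*). Beside these, the interaction was called positive for the intestinal markers *cpr-6* in both mutants and *asp-1* in *set-26(-)* worms, of 7, and negative for *ifb-2* in *hcf-1(-)* worms.

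**Figure D4:**
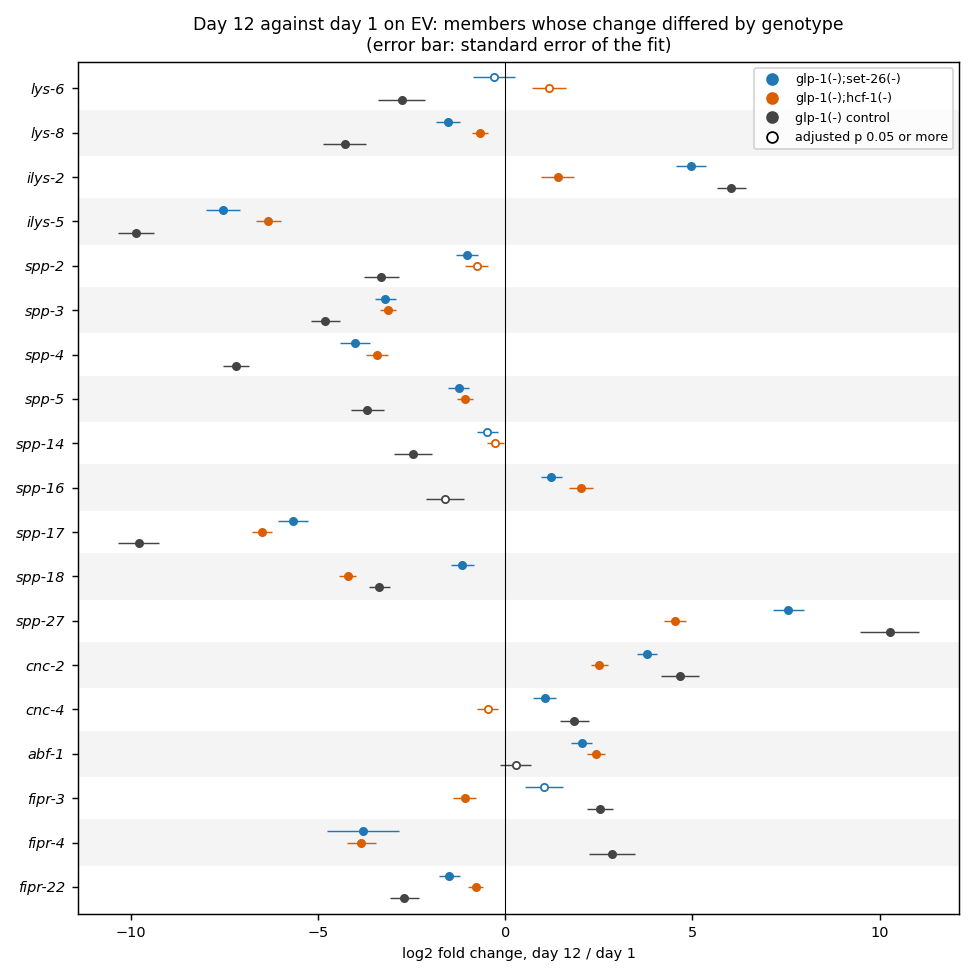
Log2 fold change from day 1 to day 12 on EV (points, with standard errors) in each genotype, for the 19 effectors whose change with age differed from controls in at least 1 mutant; open points were not called. For *lys-8*, *spp-3*, *spp-4*, *spp-5* and *spp-17* the control point lies left of both mutant points, and for *ilys-2*, *spp-27* and *cnc-2* it lies right of both.

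The effect of *hda-1* RNAi, begun at day 1, was read within each genotype at day 12. Each population was divided between EV and *hda-1* RNAi plates. Libraries of one number were taken as pairs, although the labels give only the number, and both fits are given. Without the pairing, 4 of 71 effectors tested rose in *set-26(-)* worms and 0 fell, 20 of 72 rose and 6 fell in *hcf-1(-)* worms, and 5 of 69 rose and 0 fell in controls. Of those tested 8, 6 and 9, in that order, passed the filter on reads through 1 diet only, and had to differ to be tested. Of these 1, 2 and 1 were called higher and 0, 2 and 0 lower, so the counts are a description. Calls covered 1.21% of all genes tested, 0.918% higher and 0.294% lower, in *set-26(-)* worms, 5.38% of all genes tested, 4.12% higher and 1.26% lower, in *hcf-1(-)* worms, and 0.988% of all genes tested, 0.911% higher and 0.0772% lower, in controls. The pairing as a block leaves 1 residual degree of freedom, so that its p-values and standard errors rest almost wholly on the spread shared across genes. They say little of how far the 2 pairs of a single gene differ. With it, 26 rose and 9 fell in *set-26(-)* worms (16.6% of all genes), 34 rose and 12 fell in *hcf-1(-)* worms (21.9%), and 29 rose and 8 fell in controls (13%). The unpaired medians of the effectors were 0.27 in *set-26(-)*, 0.38 in *hcf-1(-)* and 0.56 in control worms, against 0.02, 0.00 and -0.01 over all genes. Without the block, the *set-26(-)* count of 4 was 9 without the first EV library and 10 and 1 without the first and second *hda-1* RNAi library, and the control count of 5 was 14 and 3 without the first and second EV library and 0 and 1 without the first and second *hda-1* RNAi library.

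No library is shared between genotypes in these comparisons. Of 66 effectors tested in all 3, 2 rose in all 3 genotypes without the block, *lys-10* and *ilys-2* (3.03%, against 0.361% of 12460 genes), though *lys-10*, at no more than 7 reads in any day 12 EV library, passed the filter on reads only through the RNAi libraries. With the block 20 rose in all 3 (30.3%, against 3.51% of genes), of which *lys-10*, *ilys-5* and *cnc-5* passed the filter through 1 diet only in at least 1 genotype: *lys-3*, *lys-10*, *ilys-2*, *ilys-3*, *ilys-5*, *spp-1*, *spp-3*, *spp-9*, *spp-12*, *spp-14*, *spp-17*, *spp-18*, *spp-21*, *cnc-1*, *cnc-4*, *cnc-5*, *fipr-3*, *fipr-5*, *fipr-10* and *fipr-21*. Only *abf-2* fell in all 3 with the block (1.52%, against 1.7% of genes).

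*lys-10* was at 10.6 and 9.54 CPM on *hda-1* RNAi against 0.610 and 0.605 CPM on EV in *set-26(-)* worms (log2 fold change 4.06 ± 0.39, adjusted p = 0.00566). In *hcf-1(-)* worms it was at 10.5 and 10.3 CPM against 0.265 and 0.523 CPM (log2 fold change 4.83 ± 0.39, adjusted p = 0.000813), and in controls at 17 and 15.8 CPM against 0.496 and 0 CPM (log2 fold change 5.82 ± 0.63, adjusted p = 0.0142). The RNAi libraries, 9.54 to 17 CPM, lay far above the EV libraries, 0 to 0.61 CPM, in every genotype.

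*ilys-2* was at 129 and 115 CPM on *hda-1* RNAi against 22 and 21.7 CPM on EV in *set-26(-)* worms (log2 fold change 2.51 ± 0.22, adjusted p = 0.00439). It was at 114 and 68.2 CPM against 7.57 and 7.85 CPM in *hcf-1(-)* worms (log2 fold change 3.60 ± 0.28, adjusted p = 0.000813) and 701 and 360.0 CPM against 97.9 and 98.4 CPM in controls (log2 fold change 2.45 ± 0.35, adjusted p = 0.034). Having risen with age, it stood higher still on *hda-1* RNAi, and its order among genotypes, lowest in *hcf-1(-)* and highest in controls, was that on EV.

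The caenopore gene *spp-12* was at 562 and 783 CPM on *hda-1* RNAi against 68.5 and 204 CPM on EV in *set-26(-)* worms (with the block 2.51 ± 0.21, adjusted p = 5.91e-08), 1267 and 1759 CPM against 212 and 341 CPM in *hcf-1(-)* worms (log2 fold change 2.49 ± 0.26, adjusted p = 0.00216) and 713 and 1348 CPM against 36.5 and 11.8 CPM in controls (log2 fold change 5.43 ± 0.62, adjusted p = 0.019). *ilys-5* was at 13.8 and 3.55 CPM against 1.05 and 0.692 CPM in *set-26(-)* worms (with the block 3.23 ± 0.40, adjusted p = 1.01e-05), 13.1 and 3.34 CPM against 1.27 and 0.785 CPM in *hcf-1(-)* worms (log2 fold change 2.92 ± 0.65, adjusted p = 0.0379) and 55.7 and 18.8 CPM against 1.98 and 2.87 CPM in controls (log2 fold change 3.97 ± 0.58, adjusted p = 0.0346). The *ilys-5* levels remained far below those of day 1.

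*spp-18* was at 52.2 and 62.6 CPM on *hda-1* RNAi against 9.53 and 8.29 CPM on EV in *hcf-1(-)* worms (log2 fold change 2.72 ± 0.20, adjusted p = 0.000731) and 56.3 and 50.8 CPM against 10.5 and 7.92 CPM in controls (log2 fold change 2.55 ± 0.26, adjusted p = 0.0111). In *set-26(-)* worms, where the EV level was higher, it was at 71.1 and 92.4 CPM against 43.8 and 21.7 CPM (with the block 1.41 ± 0.23, adjusted p = 0.000196). *spp-14* was at 4395 and 3471 CPM against 1584 and 1121 CPM in *set-26(-)* worms (log2 fold change 1.57 ± 0.28, adjusted p = 0.0466) and 3231 and 3492 CPM against 1039 and 659 CPM in *hcf-1(-)* worms (log2 fold change 2.02 ± 0.23, adjusted p = 0.00266). Control libraries held 3389.6 and 2883 CPM on *hda-1* RNAi and 1045 and 424 CPM on EV (with the block 2.25 ± 0.16, adjusted p = 1.03e-42). The second control pair rose more than the first, a spread that this error and p-value hardly measure.

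*lys-3* rose in *set-26(-)* worms, to 101 and 109 CPM on *hda-1* RNAi against 31.5 and 31.8 CPM on EV (log2 fold change 1.76 ± 0.21, adjusted p = 0.0162). In *hcf-1(-)* worms the neighbours *spp-9* and *spp-21* rose, *spp-9* to 822 and 477 CPM against 173 and 135 CPM on EV (log2 fold change 2.12 ± 0.27, adjusted p = 0.00457) and *spp-21* to 196 and 229 CPM against 87.8 and 55.5 CPM (log2 fold change 1.61 ± 0.24, adjusted p = 0.00812). Of the caenacin cluster, *cnc-1* was at 272 and 256 CPM against 33.2 and 64.1 CPM (log2 fold change 2.49 ± 0.29, adjusted p = 0.00312) and *cnc-2* and *cnc-4* rose too, while *cnc-11* fell, to 7.09 and 4.39 CPM against 15.9 and 13.3 CPM (log2 fold change -1.36 ± 0.28, adjusted p = 0.027).

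Besides *cnc-11*, 5 genes fell on *hda-1* RNAi in *hcf-1(-)* worms without the block: *spp-27*, to 117 and 218 CPM against 348 and 598 CPM on EV (log2 fold change -1.45 ± 0.33, adjusted p = 0.0373), *spp-8* (log2 fold change -1.38 ± 0.20, adjusted p = 0.00744), *abf-1* (log2 fold change -0.87 ± 0.20, adjusted p = 0.0416), and the genes of few reads *spp-20* (log2 fold change -2.85 ± 0.45, adjusted p = 0.0099) and *spp-11* (log2 fold change -1.99 ± 0.45, adjusted p = 0.0405). *abf-2*, lower in all 3 genotypes with the block, was at 65.4 and 274 CPM on *hda-1* RNAi against 292 and 868 CPM on EV in *set-26(-)* worms (with the block -1.87 ± 0.17, adjusted p = 1.82e-07). In *hcf-1(-)* worms it was at 329.6 and 626 CPM against 471 and 724 CPM (-0.32 ± 0.10, adjusted p = 0.017 with the block), and in controls at 247 and 519 CPM against 637 and 441 CPM (-0.54 ± 0.18, adjusted p = 0.0198 with the block). In controls 1 pair fell and the other did not, so that call rests on 1 pair, while in both mutants each pair fell. *cnc-2* fell on *hda-1* RNAi in controls with the block (-0.64 ± 0.18, adjusted p = 0.00667) and rose in *set-26(-)* worms (0.93 ± 0.16, adjusted p = 0.000362).

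Tissue markers were called little on *hda-1* RNAi at day 12. The intestinal marker *ges-1* fell in *hcf-1(-)* worms, 1 of 7, and the collagen gene *sqt-3* rose in *hcf-1(-)* and control worms, 1 of 5 epidermal markers, with summed intestinal levels of 2132 and 1759.5 CPM on *hda-1* RNAi against 1917 and 1544 CPM on EV in *hcf-1(-)* worms. Their part in the effectors' changes was not tested.

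**Figure D5:**
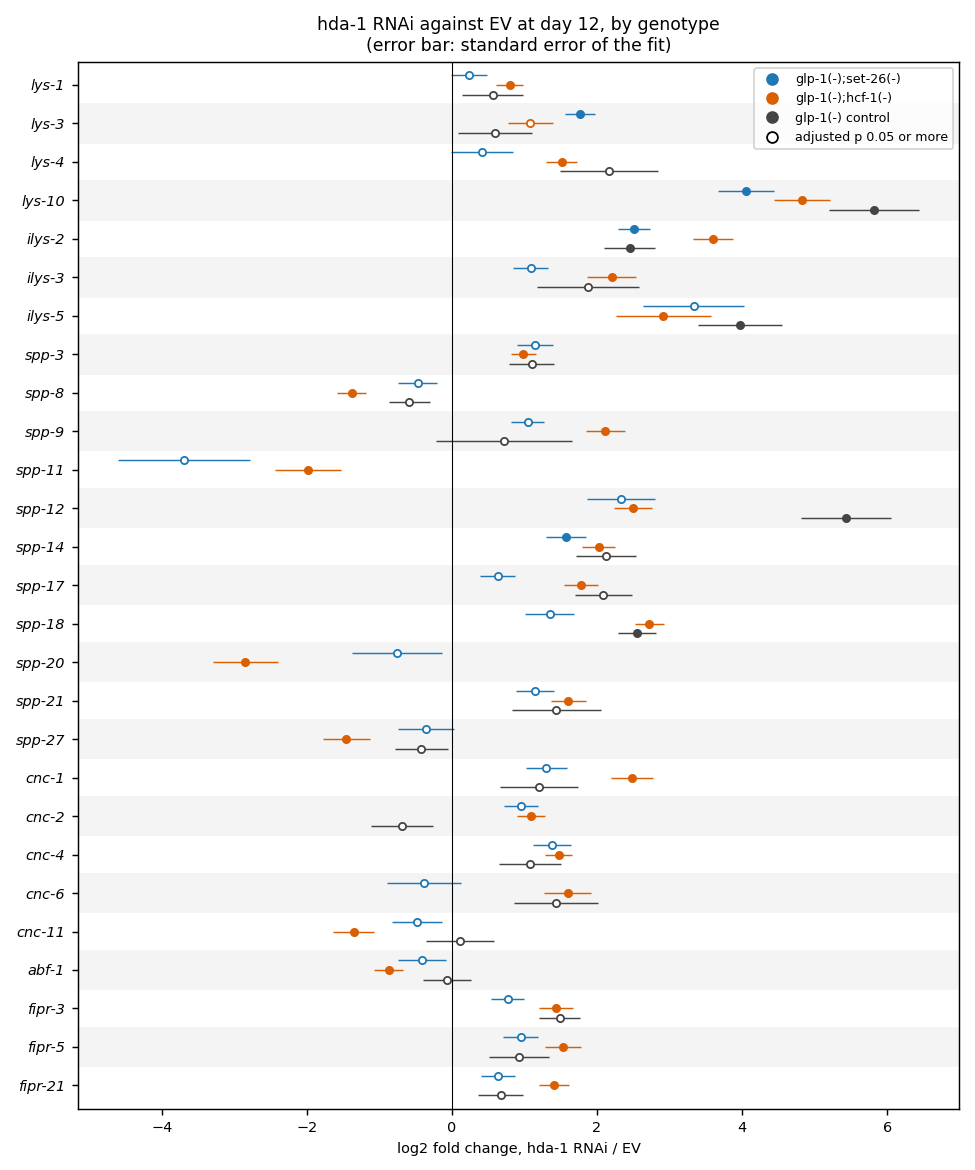
Log2 fold change of *hda-1* RNAi over EV at day 12 (points, with standard errors of the fit without the block) in each genotype, for the 27 effectors called in at least 1 genotype; open points were not called and a missing point was not tested. All points of *lys-10*, *ilys-2*, *spp-12* and *spp-14* lie right of 0, and those of *spp-8* and *spp-27* left of it.

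Whether the response to *hda-1* RNAi at day 12 differed between mutant and control was tested as a further interaction, with 77 effectors tested in each. edgeR called 0 in *set-26(-)* and 0 in *hcf-1(-)* worms, and 0 of all genes in either. Before adjustment p was under 0.05 for 12 and 12 effectors, of 839 and 535 genes, DESeq2 called 0 effectors in both, and edgeR without the filter on reads called 8 and 5. A larger number of calls in *hcf-1(-)* worms is therefore not shown to be a larger response.

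At day 3, few effectors were called on *hda-1* RNAi. Averaged over the genotypes, 1 of 70 effectors rose and 0 fell, with a median log2 fold change of -0.02 for effectors and 0.00 for all genes. Calls covered 0.456% of all genes tested, 0.319% higher and 0.137% lower, and 1.06% of genes with the block. The gene was *fipr-21*, at 537 and 433 CPM on *hda-1* RNAi against 382 and 303 CPM on EV in *set-26(-)* worms, 243 and 282 CPM against 192 and 155 CPM in *hcf-1(-)* worms and 152 and 111 CPM against 90.7 and 74.6 CPM in controls (log2 fold change 0.59 ± 0.11, adjusted p = 0.0135). It was not called without the second *set-26(-)* EV or the first *set-26(-)* *hda-1* RNAi library, and 2 effectors were called without the first *hcf-1(-)* *hda-1* RNAi library. With the block *fipr-16* was called lower as well (-0.68 ± 0.16, adjusted p = 0.0498). Chosen after their values were seen, 2 genes separated the diets in single genotypes, a difference that was not tested: *spp-9* in *hcf-1(-)* worms, at 79.8 and 53.7 CPM on *hda-1* RNAi against 14.2 and 16.3 CPM on EV, and *cnc-6* in controls, at 35.1 and 32.1 CPM against 12.8 and 9.60 CPM.

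Few of the known regulators of these families were called, and calls were also a small share of all genes. They covered 3.25% to 14.2% of all genes tested over the mutant comparisons. At such shares few calls in lists this short do not set the regulators apart from other genes. Of 8 p38 MAPK pathway genes none was called in any of the 6 mutant comparisons on EV, and *sek-1* fell in *hcf-1(-)* worms on *hda-1* RNAi (log2 fold change -1.47 ± 0.27, adjusted p = 0.0182). Of 10 DBL-1 pathway genes *lon-2* fell in *hcf-1(-)* worms at day 1 (log2 fold change -1.07 ± 0.26, adjusted p = 0.032), *sma-10* there at day 3 (log2 fold change -0.67 ± 0.21, adjusted p = 0.0437), and *sma-3*, a SMAD, in *set-26(-)* worms at day 3 (log2 fold change -0.60 ± 0.18, adjusted p = 0.0364), and none was called at day 12. Of 13 transcription factors of immune genes, *pqm-1* fell in both mutants at day 1 (log2 fold change -1.16 ± 0.26, adjusted p = 0.0347 in *set-26(-)* and log2 fold change -1.17 ± 0.26, adjusted p = 0.026 in *hcf-1(-)*) and *zip-2* in both at day 3. For *zip-2* the log2 fold change was -0.84 ± 0.16 (adjusted p = 0.00163) in *set-26(-)* and -0.51 ± 0.16 (adjusted p = 0.0437) in *hcf-1(-)* worms. Of 10 genes of epidermal immune signalling *nipi-3*, a pseudokinase needed for the epidermal response to fungus, rose in both at day 3. For *nipi-3* the log2 fold change was 0.69 ± 0.20 (adjusted p = 0.0276) in *set-26(-)* and 0.72 ± 0.20 (adjusted p = 0.0211) in *hcf-1(-)* worms.

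The *nlp* antimicrobial peptide genes, a related epidermal family, were called at day 3 as well: 4 of 10 tested rose in *set-26(-)* worms with none falling, and 5 rose and 2 fell in *hcf-1(-)* worms, where 8.17% and 6.81% of all genes rose. *nlp-30* rose in both. For *nlp-30* the log2 fold change was 2.25 ± 0.28 (adjusted p = 2.11e-05) in *set-26(-)* and 1.77 ± 0.28 (adjusted p = 0.000292) in *hcf-1(-)* worms. With age none of the 10 DBL-1 pathway genes was called in controls, where 26.8% of all genes tested were. *atf-7*, of the p38 pathway, fell in all 3 genotypes (log2 fold changes -1.29 in *set-26(-)*, -0.78 in *hcf-1(-)* and -1.38 in control worms), as did 10.3% of genes tested in all 3. Between *hda-1* RNAi and EV none of the p38 or DBL-1 genes was called within any genotype at day 12, where 0.988% to 5.38% of all genes tested were.

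Of the 80 effectors, 79 were tested in at least 1 of the 20 comparisons and 7 of these were never called: *spp-6*, *spp-10* and *abf-6*, tested in all 20, *spp-19*, tested in 17, and *fipr-18*, *fipr-20* and *fipr-28*, tested in 3, 9 and 6. *spp-10*, the gene most like human prosaposin, was among the most even, at 429 to 921 CPM over the 30 libraries. *abf-3*, at 0 to 2.0 CPM, had too few reads to be tested in any comparison. *fipr-17*, *fipr-18* and *fipr-20* were high in single libraries of a group, *fipr-17* with 0 and 14.3 CPM in day 1 *hcf-1(-)* and 0.158 and 15.4 CPM in day 3 control libraries on EV, and the only call among these genes, *fipr-17* lower at day 12 than at day 1 in *hcf-1(-)* worms, was of groups that overlapped.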

How the data were processed

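Per the submitters' processing notes, the authors trimmed QuantSeq reads with Trim Galore 0.6.5, checked them with FastQC and aligned them to ce11 (WBcel235) with STAR 2.7.9a, keeping unique matches, and deposited stranded gene counts as 1 raw, unnormalized count table. The annotation release they used was not given in the sources used here. Positions come from the Ensembl WBcel235 annotation, release 115. Genes with more than 10 reads in at least 2 libraries of a fit were tested with edgeR 4.0.16 in R 4.3.3 (quasi-likelihood, TMM factors, Benjamini-Hochberg adjustment over all genes tested, threshold 0.05), and SE is the fold change over the square root of F. Each day and diet was fitted over its 3 genotypes, aging and RNAi contrasts within a genotype, and interactions over the groups they join.

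Alternatives were the replicate number as a block, DESeq2 1.42.0, its size factors in edgeR, no filter on reads, all 30 libraries in 1 fit, and leaving out each library. Replicate numbers were taken to pair the RNAi and aging libraries. The study's methods describe 1 population divided between plates, but the labels give only the number. Deviations of same-numbered RNAi and EV libraries correlated across genes (r = 0.33 in *set-26(-)*, 0.29 in *hcf-1(-)* and 0.33 in control worms at day 12), and less with age (0.01 to 0.02). Named effectors were 23 chosen with these lists, up to 6 per direction and comparison with 50 or more reads on average, and genes singled out from the plots. The members, lists and tests were chosen with earlier results of these data known.

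TMM factors ran with age, at 0.639 to 0.991 at day 1, 0.767 to 1.05 at day 3 and 1.11 to 1.34 at day 12. At the median depth of 8323966 reads, 3 reads, used as the floor for a group near 0, are 3.60e-05% of a library. The study describes its replicates as biological, and with 2 libraries a group p-values rest on the spread that edgeR shares across genes. No reads lay in a row without a gene.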

Additional observations from a re-analysis of the deposited data

Results flagged for a closer look

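The change between day 1 and day 12 on EV differed between a mutant and control, by a test of the interaction, for 19 effectors. The values below are differences in log2 fold change, mutant minus control. In *set-26(-)* worms they were 2.72 for *lys-8*, 1.58 for *spp-3*, 3.17 for *spp-4*, 2.42 for *spp-5*, 2.82 for *spp-16*, 4.08 for *spp-17*, 2.19 for *spp-18* and -6.71 for *fipr-4*. In *hcf-1(-)* worms the lysozyme genes gave 3.87 for *lys-6*, 3.55 for *lys-8*, -4.70 for *ilys-2* and 3.48 for *ilys-5*. The saposin-like genes gave 2.49 for *spp-2*, 1.62 for *spp-3*, 3.74 for *spp-4*, 2.55 for *spp-5*, 2.14 for *spp-14*, 3.58 for *spp-16*, 3.24 for *spp-17* and -5.80 for *spp-27*. The peptide genes gave -2.19 for *cnc-2*, -2.37 for *cnc-4*, 2.09 for *abf-1*, -3.66 for *fipr-3*, -6.75 for *fipr-4* and 1.84 for *fipr-22*. The values of both mutants share the control libraries, and all of them include the differences between genotypes at day 1. Those of *fipr-4* rest on day 1 mutant libraries that were far apart, at 50.2 and 3.09 CPM in *set-26(-)* and 61.8 and 25.3 CPM in *hcf-1(-)* libraries.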

How the results depend on the processing

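Of 397 calls of single effectors over the comparisons, 192 held under every alternative and without any 1 library, and 1 changed direction. It was *spp-23* in *hcf-1(-)* against control at day 3, with log2 fold changes from -0.41 (without the second *hcf-1(-)* library) to 2.86 without 1 library. DESeq2 lost 19 of the 397 calls, its size factors in edgeR 4, no filter on reads 7, all 30 libraries in 1 fit 62 and the replicate block 17. With DESeq2 the number of effectors called was 22 for *set-26(-)* against control at day 1, 16 and 13 for *hda-1* RNAi at day 12 in *set-26(-)* and control worms, 2 for RNAi at day 3, and 17 and 28 for the interaction with age in *set-26(-)* and *hcf-1(-)* worms. With no filter on reads it was 27 and 38 for *set-26(-)* and *hcf-1(-)* against control at day 1, 28 for *set-26(-)* at day 12, 23 for each mutant at day 12 on *hda-1* RNAi, 26 and 23 for *hda-1* RNAi at day 12 in *set-26(-)* and control worms, 6 for RNAi at day 3, 28 and 35 for the interaction with age, and 8 and 5 for that with diet, in *set-26(-)* and *hcf-1(-)* worms. With all 30 libraries in 1 fit it was 26 and 15 for *set-26(-)* against control at days 1 and 3, 12 for *hcf-1(-)* at day 3, 9, 15 and 13 for *hda-1* RNAi at day 12 in *set-26(-)*, *hcf-1(-)* and control worms, 0 for RNAi at day 3 and 15 for the interaction with age in *set-26(-)* worms. With the replicate block it was 24 and 29 for *set-26(-)* and *hcf-1(-)* against control at day 12 on *hda-1* RNAi, where the labels give the libraries only a shared number but same-numbered libraries deviated together across genes (r = 0.21 and 0.25), 35, 46 and 37 for *hda-1* RNAi at day 12 in *set-26(-)*, *hcf-1(-)* and control worms, and 2 for RNAi at day 3. The cause of these shifts was not tested. DESeq2's size factors left every count within 1.5 times.

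Without 1 library the counts ran at 6 to 16 and 6 to 23 at day 1, 20 to 35 and 19 to 37 at day 3, 5 to 28 and 7 to 31 at day 12 on EV, and 3 to 8 and 7 to 16 on *hda-1* RNAi, for *set-26(-)* and *hcf-1(-)* against control. For *hda-1* RNAi they ran at 1 to 10, 22 to 28 and 0 to 14 at day 12 in *set-26(-)*, *hcf-1(-)* and control worms, and at 0 to 2 at day 3. With age they ran at 37 to 47, 49 to 50 and 28 to 42 in *set-26(-)*, *hcf-1(-)* and control worms, and at 0 to 34 for day 3 against day 1. For the interaction with age they ran at 2 to 17 and 6 to 25, and for that with diet at 0 to 0, in *set-26(-)* and *hcf-1(-)* worms. A group left with 1 library was taken to vary like the others of its fit. Limits are 2 libraries a group, TMM factors that ran with age, unique matches within clusters of related genes, and, for effectors under a few CPM, counts near the floor.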
